A study of Mus musculus with 4 samples.

Results

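The genes described here make cholesterol and fatty acids, together with the factors that set their transcription and the carriers that move sterol. They are 36 of the 51905 genes in the deposited table and were taken by gene symbol: 4 regulators, 18 enzymes of the sterol arm (7 mevalonate steps and 11 sterol steps), 2 sterol transport genes and 12 enzymes of the fatty acid arm. Of the 36, 34 averaged 10 or more counts over the libraries of each cell line and were among the 11928 genes compared.

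CT26 and MC38, both established mouse colorectal cancer lines, had been infected with lentivirus for a hairpin that targets GFP (shGFP, serving as control) or the Aurora-A gene of the mouse (shmaurka-1), and RNA was taken 48 h after seeding. Each of the 4 conditions was sequenced as 1 library, so nothing here measures the spread between cultures, and a single hairpin stands for the knockdown. CT26 was grown in RPMI-1640 and MC38 in high glucose DMEM with HEPES and non-essential amino acids, both with 10% serum, so that line and medium cannot be told apart. The study selected infected cells with puromycin, and the labels give both lines as wild type, CT26 as fibroblast and MC38 as epithelial cell. In these bulk libraries fewer cells of a type and less RNA per cell cannot be told apart.

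Cells build cholesterol from acetyl-CoA by way of mevalonate, squalene and lanosterol, and build fatty acids from the same precursor by carboxylation, repeated addition of malonyl units, elongation and desaturation. Both arms are under the SREBP transcription factors, which SCAP escorts out of the endoplasmic reticulum when sterol is low and which INSIG proteins hold there when sterol is high. SREBP-2, from Srebf2, acts mainly on sterol genes and SREBP-1, from Srebf1, mainly on fatty acid genes, and proliferating tumour cells draw on both arms for membranes.

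SREBPs bind the sterol regulatory element, often next to the CCAAT box bound by NF-Y. RefSeq promoter windows of build GRCm38.p6 were found for 29 of the 36 genes, and the 250 bases before each start were searched on both strands, overlaps between motifs allowed. The letters TCACNCCA, a core of the sterol regulatory element, occurred in 3 of the 29 genes (10.3%), against 4.2% of all 27025 genes with a window. CCAAT occurred in 22 of the 29 (75.9%), against 37.5% of all genes and 41.8% of the compared genes with a window. It was in 14 of 15 sterol arm genes (Acat2 being the exception) and in 5 of 9 fatty acid arm genes. GGGCGG, the letters of a GC box, was in 24 of the 29 (82.8%), against 65.8% of the compared genes with a window. These are matches of letters in a short window and not measured sites. The 3 windows with TCACNCCA are shown first, then those of Acss2 and Abca1, the genes of the list with the lowest ratios in CT26. Each is written 5′ to 3′ on the strand of the gene, with TCACNCCA and CCAAT in capitals on either strand, so that CCAAT on the other strand reads ATTGG. The windows are Srebf2 on the plus strand at chr15:82147019-82147268, Hmgcs1 on the plus strand at chr13:119690101-119690350, Msmo1 on the minus strand at chr8:64733579-64733828, Acss2 on the plus strand at chr2:155517793-155518042 and Abca1 on the minus strand at chr4:53159896-53160145.

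Srebf2: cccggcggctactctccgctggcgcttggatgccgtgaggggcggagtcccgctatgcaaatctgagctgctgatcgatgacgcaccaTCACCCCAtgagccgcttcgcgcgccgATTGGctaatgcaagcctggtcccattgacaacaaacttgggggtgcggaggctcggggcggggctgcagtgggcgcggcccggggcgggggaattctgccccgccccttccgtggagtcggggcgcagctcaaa

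Hmgcs1: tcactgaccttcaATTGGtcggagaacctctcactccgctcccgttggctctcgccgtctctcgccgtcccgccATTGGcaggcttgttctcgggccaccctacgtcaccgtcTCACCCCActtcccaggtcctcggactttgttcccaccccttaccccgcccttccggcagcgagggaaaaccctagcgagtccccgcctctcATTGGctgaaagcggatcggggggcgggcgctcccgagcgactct

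Msmo1: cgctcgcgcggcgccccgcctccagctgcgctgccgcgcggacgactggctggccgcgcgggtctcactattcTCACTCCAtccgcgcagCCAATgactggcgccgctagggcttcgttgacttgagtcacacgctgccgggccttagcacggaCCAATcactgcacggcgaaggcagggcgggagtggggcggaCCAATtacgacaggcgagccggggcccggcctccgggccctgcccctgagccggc

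Acss2: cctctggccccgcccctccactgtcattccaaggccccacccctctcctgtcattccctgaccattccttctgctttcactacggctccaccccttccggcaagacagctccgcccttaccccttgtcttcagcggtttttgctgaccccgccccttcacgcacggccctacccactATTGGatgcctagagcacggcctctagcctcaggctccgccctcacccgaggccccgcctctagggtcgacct

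Abca1: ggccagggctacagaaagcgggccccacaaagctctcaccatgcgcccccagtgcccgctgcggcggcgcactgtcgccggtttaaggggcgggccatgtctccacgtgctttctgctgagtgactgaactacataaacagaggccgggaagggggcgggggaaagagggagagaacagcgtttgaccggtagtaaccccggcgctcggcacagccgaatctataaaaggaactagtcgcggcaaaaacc

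Hmgcs1 and Msmo1 each held CCAAT 3 times, Srebf2 and Acss2 once, and Abca1 held neither set of letters.

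The libraries held between 22207768 and 23752269 fragments. Aurka, the targeted gene, was counted at 5724 fragments under shGFP and 1093 under shmaurka-1 in CT26, and at 2300 and 413 in MC38. This gave a log2 ratio of −2.28 for CT26 (95% interval from −2.38 to −2.19) and of −2.44 for MC38 (−2.60 to −2.29). Epcam and Cdh1, which define epithelial cells, had at most 6 fragments in any library of either line, and Vim, a mesenchymal gene, had 12373 to 15826, so these defining epithelial markers were near 0 in MC38, which is labelled epithelial. Esrp1, an epithelial splicing factor, had 46 and 27 fragments in MC38 and 0 in both CT26 libraries. Of 7 epithelial markers 2 passed the filter, Krt8 at 13 to 22 fragments in every library and Krt18 at 1516 and 1485 fragments in CT26 and 12 and 14 in MC38. Of 6 immune markers Cd68 alone passed it, at 79 to 145 fragments. Of 7 fibroblast markers compared, 5 were lower after knockdown in each line, against 53.9% of all genes in CT26 and 49.0% in MC38. Their median log2 ratios were −0.131 in CT26 and −0.074 in MC38. With DESeq2 size factors 4 were lower in CT26 and 6 in MC38, and in FPKM with a pseudocount of 1, 4 in each. The part of these markers in the results below was not tested.

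Ratios below are of shmaurka-1 over shGFP within a line, from counts scaled between libraries with 1 count added, and levels of a gene are given as scaled CPM (counts for each 1000000 of the scaled library). Brackets hold exact 95% binomial intervals of the log2 ratio. They cover counting error only and compare 2 libraries, not the conditions. Levels of different genes are compared in FPKM, which divides by length.

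None of the 34 genes was more than 1.5-fold higher in CT26 (2.94% of all genes compared were) or in MC38 (2.57% were). Below 0.6-fold lay 1 gene in CT26, Acss2 (2.68% of all genes), and none in MC38 (0.998% of all genes). With shares this low among all genes, such counts out of 34 do not set the list apart. A smaller fold of 1.2 was read as well. In CT26 2 genes were more than 1.2-fold higher, Mvk and Fads2 (5.88% of the 34, against 12.2% of all genes), and 8 were more than 1.2-fold lower (23.5%, against 16.8%). The 8 were Acss2, Abca1, Scd2, Pmvk, Dhcr7, Stard4, Sc5d and Acat2. That count was 7 with DESeq2 size factors, 8 with total-count scaling and 5 in FPKM with a pseudocount of 1. The shares of all genes lower by that fold were not computed under these alternatives. In MC38 6 genes were more than 1.2-fold higher (17.6%, against 13.0%) and none was lower by that fold (10.6% of all genes were). With DESeq2 size factors the counts of genes more than 1.2-fold higher were 4 in CT26 (14.4% of all genes) and 4 in MC38 (12.0%). With total-count scaling they were 2 (11.8%) and 3 (11.2%), and in FPKM with a pseudocount of 1 they were 3 (12.2%) and 3 (10.3%). Whether the lines differ was not tested. The 6 were Abca1, Mvk, Acss2, Pmvk, Fads1 and Fdft1, of which Abca1, Acss2 and Pmvk were among the 8 lower in CT26.

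The direction also differed. After knockdown 11 of the 34 genes were higher in CT26 (32.4%, against 46.1% of all genes), and 27 of the 34 were higher in MC38 (79.4%, against 51.0%). The CT26 count depended on the scaling. Under DESeq2 size factors it was 16 (against 51.5% of all genes), with Srebf2, Insig1, Cyp51, Nsdhl and Acly, all between −0.022 and −0.001, turned to the higher side. In FPKM with a pseudocount of 1 it was 15 (against 53.1%), with Srebf2, Cyp51, Fasn and Elovl6 turned. The MC38 count was 27 under both, against 48.2% of all genes with DESeq2 size factors and 50.7% in FPKM. With total-count scaling the counts were 10 in CT26 (against 44.6%) and 26 in MC38 (against 45.5%). In CT26 the interval lay above 0 for 7 of the 34 genes (19.9% of all genes compared) and below 0 for 12 (23.2% of all genes). In MC38 it lay above 0 for 19 (23.5% of all genes) and below 0 for 2 (21.3%). The interval narrows with the number of fragments, so these shares depend on the level of the genes. It lay below 0 in CT26 and above 0 in MC38 for 6 of the 34 (17.6%), against 4.26% of all genes, and the reverse held for none, against 3.15%.

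**Figure D1:**
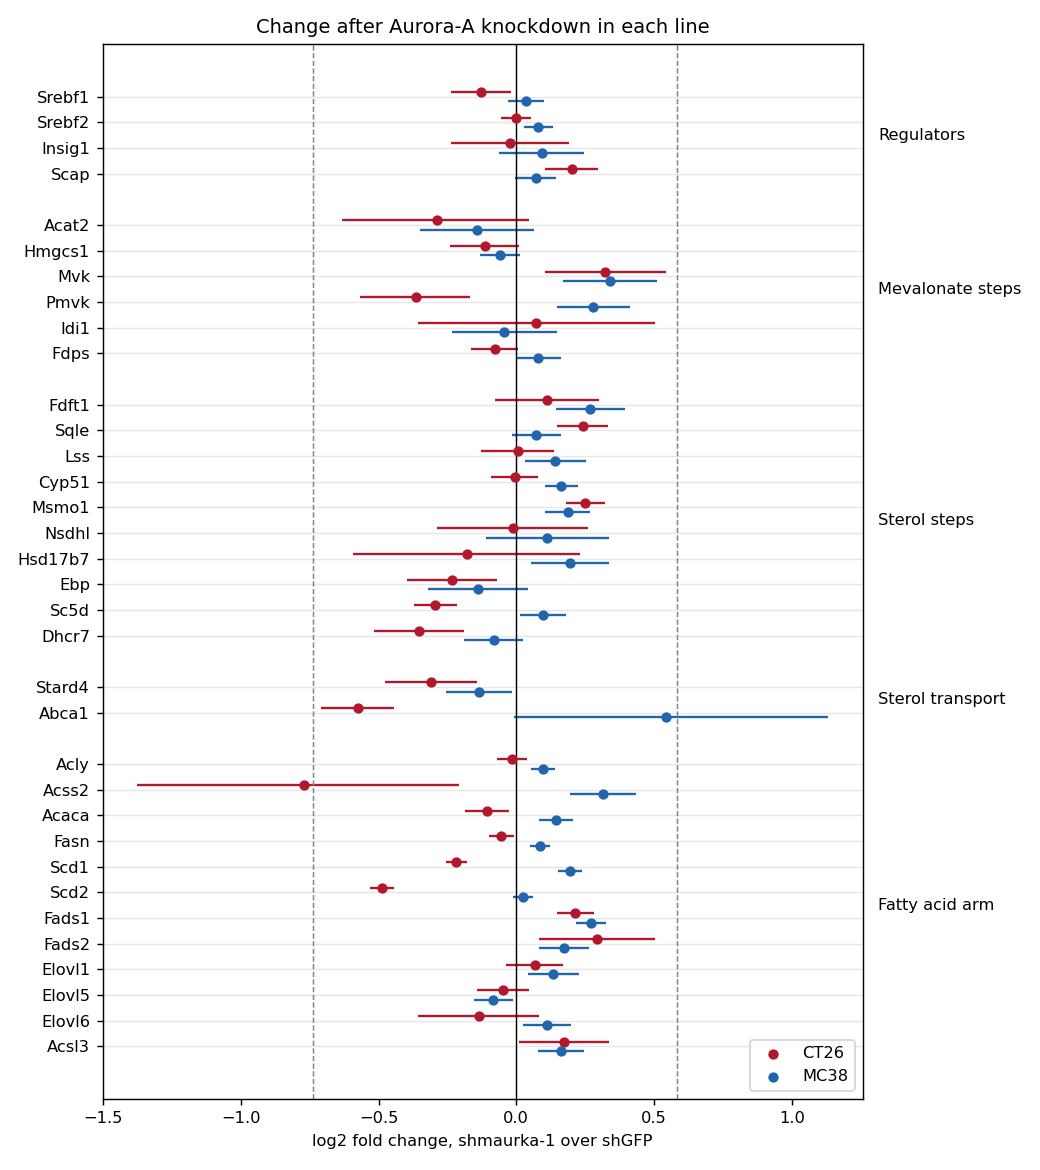
Log2 ratio of shmaurka-1 over shGFP for the 34 genes compared, by role, in CT26 (red) and MC38 (blue). Bars are exact 95% intervals for counting error in 1 library per condition, and dashed lines mark 1.5-fold and 0.6-fold. Most blue points lie to the right of 0 (27 of 34), and Acss2 in CT26 is the single point beyond a dashed line.

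The sterol arm and the fatty acid arm had similar medians within each line. The median log2 ratio in CT26 was −0.046 over 16 sterol arm genes and −0.051 over 12 fatty acid genes, against −0.022 over all genes compared. With DESeq2 size factors these medians were −0.016 and −0.021, against 0.008. In FPKM with a pseudocount of 1 they were −0.021 and −0.012, against 0.015. In MC38 the medians on the scaled counts were 0.104 and 0.139, against 0.005 over all genes. Higher in MC38 were 11 of 12 fatty acid genes, with Elovl5 as the exception, and 11 of 16 sterol arm genes. Of all genes 51.0% were. With total-count scaling the counts were 10 and 11, against 45.5% of all genes. In CT26 the counts were 4 of 12 and 6 of 16, against 46.1% of all genes. They became 5 and 8 with DESeq2 size factors (against 51.5%) and 4 and 5 with total-count scaling (against 44.6%). In FPKM with a pseudocount of 1 they were 6 and 7 (against 53.1%). Within the sterol arm, the 6 mevalonate steps compared had a median of 0.018 in MC38, which was −0.010 under total-count scaling, and the 10 sterol steps one of 0.127.

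Across the lines, 17 of the 34 genes were lower in CT26 and higher in MC38 after knockdown, against 24.2% of all genes. Only Idi1 (2.94%) went the other way, against 19.3% of all genes. Another 10 genes were higher in both lines (29.4%, against 26.7% of all genes) and 6 lower in both (17.6%, against 29.7%). The count of 17 was 12 with DESeq2 size factors, against 20.1% of all genes, and 13 in FPKM with a pseudocount of 1, against 20.8%. With total-count scaling it was again 17, against 22.1%. Among the neighbouring genes described below, on the scaled counts, 5 of 10 genes of fatty acid oxidation were also lower in CT26 and higher in MC38. So were 2 of 5 other LXR genes, and 0 went the other way in either list. Of 12 further fatty acid genes 1 did so and 1 went the other way, as in the 6 isoprenoid genes.

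**Figure D2:**
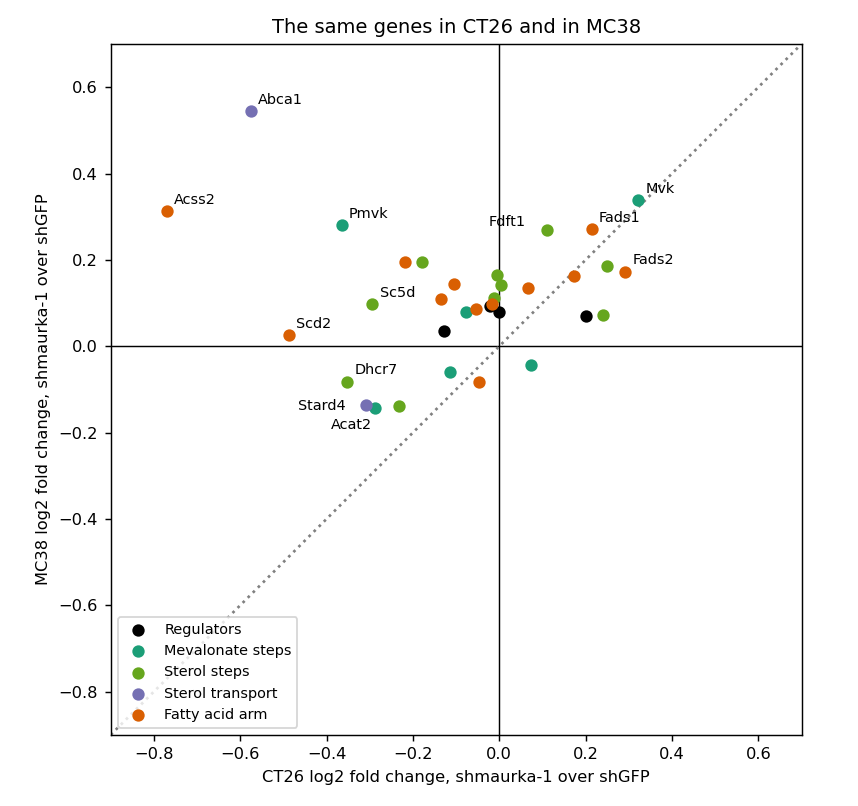
Log2 ratio of shmaurka-1 over shGFP in CT26 (horizontal) and MC38 (vertical), 1 point for each of the 34 genes, coloured by role, with the dotted line at equal ratios. The upper left field holds 17 genes and the lower right field 1, and Acss2 and Abca1 lie farthest from the dotted line.

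Among the regulators the ratios were small. Srebf1, the source of SREBP-1, had 70.8 CPM with shGFP and 64.8 with shmaurka-1 in CT26, and 140 and 144 in MC38. This was a log2 ratio of −0.13 in CT26 (−0.24 to −0.02), the lowest of the 4 regulators there, and of 0.04 in MC38 (−0.03 to 0.10). Its locus in the files is shared with Rai1 and 3 other genes. Srebf2 stood at 281 CPM in both CT26 libraries and at 231 and 244 CPM in MC38, with log2 ratios of −0.001 and 0.08. Srebf2 turned to the higher side in CT26 in FPKM (0.08), and with DESeq2 size factors so did Srebf2 (0.03) and Insig1 (0.007). Scap, the escort of the SREBPs, was the one regulator higher in CT26 shmaurka-1 on the scaled counts, at 95.2 CPM against 82.8 (log2 0.20, 0.11 to 0.30), and had 116 against 110 CPM in MC38 (0.07, −0.005 to 0.14). Insig1, itself an SREBP target, had 18.1 and 17.8 CPM in CT26 and 25.6 and 27.3 CPM in MC38, where its log2 ratio of 0.09 (−0.06 to 0.25) was the highest of the regulators. All 4 regulators were thus on the higher side in MC38 (against 51.0% of all genes), each by less than 1.2-fold.

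Of the mevalonate steps, Mvk was higher in both lines after knockdown, whereas Pmvk was lower in CT26 and higher in MC38. Mvk, mevalonate kinase (chr5:114444269-114460591 in GRCm38), had 15.1 CPM with shGFP and 18.9 with shmaurka-1 in CT26, and 19.5 and 24.7 CPM in MC38. Its log2 ratio was 0.32 in CT26 (0.10 to 0.54) and 0.34 in MC38 (0.17 to 0.51), the highest of the sterol arm in both lines. Pmvk, phosphomevalonate kinase and the next enzyme of the pathway (chr3:89454541-89469013), had 23.6 and 18.3 CPM in CT26 and 32.4 and 39.3 CPM in MC38. It was lower in CT26 (log2 −0.37, −0.57 to −0.17), the lowest of the sterol arm, and higher in MC38 (0.28, 0.15 to 0.41), with intervals that did not meet.

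Acat2, a thiolase that makes acetoacetyl-CoA, was lower in both lines, at 8.13 and 6.65 CPM in CT26 and 15.8 and 14.3 in MC38, with both intervals including 0 (log2 −0.29, −0.63 to 0.05, and −0.14, −0.35 to 0.06). Hmgcs1, HMG-CoA synthase, had 53.6 and 49.4 CPM in CT26 and 121 and 116 CPM in MC38, and its window holds the letters TCACNCCA shown above. Its log2 ratios of −0.12 and −0.06 had intervals that included 0. Fdps, farnesyl diphosphate synthase, had the fourth highest level of the list at a mean of 77.2 FPKM, and its log2 ratios were −0.08 in CT26 (−0.16 to 0.01) and 0.08 in MC38 (−0.002 to 0.16). Idi1, isopentenyl diphosphate isomerase, had 95 and 93 fragments in CT26, too few to place its ratio more closely than −0.36 to 0.50.

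Mvd, the decarboxylase that follows Pmvk, could be read in MC38 only, where it had 1010 and 1048 fragments (log2 0.09, −0.04 to 0.21). In CT26 it was listed at 0 in both libraries. So were all 210 genes of the same merged locus of 4.44 Mb (chr8:119910360-124345724), 79 of which had at least 10 counts in both MC38 libraries. They include the ribosomal protein gene Rpl13, at 1369 and 1549 FPKM in MC38, so the zeros are no measure of Mvd in CT26. Tm7sf2, a sterol reductase, had 18 and 23 fragments in CT26 and 8 in each MC38 library and was not compared.

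Among the sterol steps 8 of 10 were higher in MC38 (against 51.0% of all genes) and 4 of 10 in CT26 (against 46.1%). The CT26 count was 6 with DESeq2 size factors (against 51.5%), 3 with total-count scaling (against 44.6%) and 5 in FPKM with a pseudocount of 1 (against 53.1%). Msmo1, a methylsterol oxidase, was the third most abundant gene of the list by FPKM (mean 97.7) and was higher after knockdown in both lines. It had 147 and 175 CPM in CT26 and 89.4 and 102 CPM in MC38, log2 ratios of 0.25 (0.18 to 0.32) and 0.19 (0.11 to 0.27). Sqle, squalene epoxidase, had a log2 ratio of 0.24 in CT26 (0.15 to 0.33) and 0.07 in MC38 (−0.02 to 0.16).

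Fdft1, squalene synthase, had the highest ratio of the sterol steps in MC38, from 36.2 to 43.7 CPM (log2 0.27, 0.14 to 0.40), and 21.8 and 23.5 CPM in CT26 (0.11, −0.08 to 0.30). The files give it a locus shared with Ctsb. Cyp51, the lanosterol demethylase, had 107 CPM in both CT26 libraries and 171 and 191 CPM in MC38 (log2 0.16, 0.11 to 0.22). Lss, lanosterol synthase, was also flat in CT26 (0.005) and higher in MC38 (0.14, 0.03 to 0.25).

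Of all 10 sterol steps the median log2 ratio in CT26 was −0.009, and 0.020 with DESeq2 size factors. Dhcr7, which makes cholesterol from its direct precursor, went from 34.9 to 27.3 CPM in CT26, the lowest ratio of the sterol steps (log2 −0.35, −0.52 to −0.19), and from 55.9 to 52.8 CPM in MC38 (−0.08, −0.19 to 0.03). Sc5d, a sterol desaturase, went from 147 to 120 CPM in CT26 (−0.29, −0.37 to −0.22) and from 87.5 to 93.6 CPM in MC38 (0.10, 0.01 to 0.18). Ebp, the sterol isomerase before it, was lower in both lines, with log2 ratios of −0.23 (−0.40 to −0.07) and −0.14 (−0.32 to 0.04), the latter the lowest of the sterol steps in MC38. Nsdhl and Hsd17b7 act with Msmo1 at C4. Nsdhl had log2 ratios of −0.01 in CT26 (−0.29 to 0.26) and 0.11 in MC38 (−0.11 to 0.335), and both intervals included 0. Hsd17b7 had −0.18 in CT26 (−0.59 to 0.23), from 112 and 92 fragments, and 0.19 in MC38 (0.05 to 0.34).

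**Figure D3:**
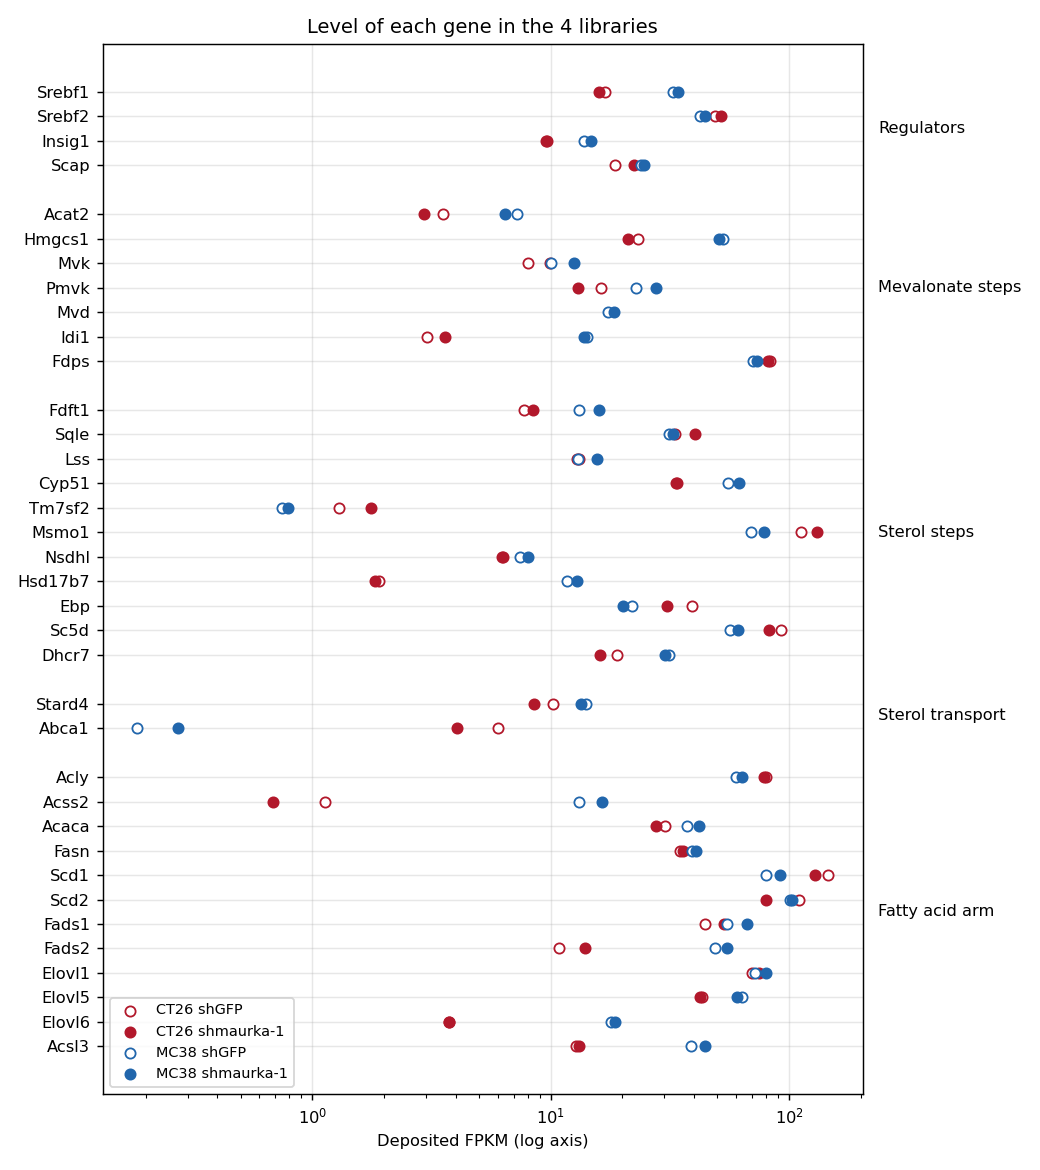
Deposited FPKM of the 36 genes in the 4 libraries on a log axis, grouped by role, with open circles for shGFP and filled circles for shmaurka-1. Red is CT26 and blue is MC38, which lie farthest apart in mean FPKM for Abca1 (22-fold) and Acss2 (16.2-fold), and Mvd has no red point because it is listed at 0 in CT26.

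Both sterol transport genes were lower in CT26 shmaurka-1. Abca1, which exports cholesterol to apolipoprotein and is a target of the sterol-sensing LXR receptors (chr4:53030787-53159895), had 58.5 and 39.3 CPM in CT26, from 1231 and 768 fragments (log2 −0.58, −0.71 to −0.45). In MC38 it was near the limit of reading, with 46 and 66 fragments, and its log2 ratio of 0.54 had an interval from −0.01 to 1.13. Stard4, a carrier of free sterol between membranes, had 33.2 and 26.8 CPM in CT26 (−0.31, −0.48 to −0.14) and 45.7 and 41.6 CPM in MC38 (−0.14, −0.26 to −0.02), so that it was lower in both lines.

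In the fatty acid arm the widest ratio belonged to Acss2, which makes acetyl-CoA from acetate. It had 74 and 40 fragments in CT26, or 3.52 and 2.05 CPM, a fold of 0.586 (log2 −0.77, −1.38 to −0.21). With 5 counts added, or in FPKM with a pseudocount, it no longer passed 0.6-fold. MC38 held 39.9 and 49.5 CPM of Acss2, a log2 ratio of 0.31 (0.19 to 0.43), the highest of the arm there. Its locus in the files (chr2:155490379-155594955) is shared with Gss, Ggt7 and 6 other genes. Acly, which makes acetyl-CoA from citrate, had log2 ratios of −0.02 (−0.07 to 0.04) and 0.10 (0.05 to 0.14).

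The core enzymes differed by less than 1.2-fold in either line. Acaca, acetyl-CoA carboxylase, had 130 and 121 CPM in CT26 and 159 and 175 in MC38, log2 ratios of −0.11 (−0.19 to −0.03) and 0.14 (0.08 to 0.21). Fasn, fatty acid synthase, had 416 and 401 CPM in CT26 and 439 and 466 in MC38, log2 ratios of −0.05 (−0.10 to −0.01) and 0.09 (0.05 to 0.12). The CT26 direction of Fasn depended on the values used, since deposited FPKM went from 35.0 to 35.8 there.

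Scd1 and Scd2, stearoyl-CoA desaturases that place the first double bond, both on chromosome 19, were the most abundant genes of the list, at a mean of 111 and 98.6 FPKM. Scd1 had 617 and 531 CPM in CT26 (log2 −0.22, −0.26 to −0.18) and 326 and 373 in MC38 (0.20, 0.15 to 0.24). Scd2 had 493 and 351 CPM in CT26, a fold of 0.713 (−0.49, −0.53 to −0.44), and 440 and 448 in MC38 (0.03, −0.01 to 0.06). Both were lower in CT26, with at least 6872 fragments a library, and the MC38 direction of Scd2 turned under total-count scaling. As closely related copies they may share reads in the counting, and the split between them is uncertain.

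Fads1 and Fads2 are the desaturases of polyunsaturated chains. Fads1 had 157 and 183 CPM in CT26 and 188 and 227 in MC38, log2 ratios of 0.21 (0.15 to 0.28) and 0.27 (0.22 to 0.33). Fads2, also on chromosome 19, had 16.7 and 20.5 CPM in CT26, the highest ratio of the arm in that line (0.29, 0.08 to 0.50), and 72.6 and 81.8 in MC38 (0.17, 0.08 to 0.26). Both were higher after knockdown in both lines.

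Of the elongases, Elovl1, which extends very long chains and had the fifth highest level at 74.2 FPKM, had 73.3 and 76.8 CPM in CT26 (0.07, −0.04 to 0.17) and 71.1 and 78.1 in MC38 (0.14, 0.04 to 0.23). The files place it in a locus shared with the mitotic gene Cdc20. Elovl5, an elongase of polyunsaturated chains, was lower in both lines, with log2 ratios of −0.05 (−0.14 to 0.05) and −0.08 (−0.16 to −0.01), the lowest of the arm in MC38. Elovl6, which extends palmitate, had log2 ratios of −0.14 (−0.36 to 0.08) and 0.11 (0.02 to 0.20), and in FPKM with a pseudocount of 1 the CT26 value was 0.002. Acsl3, an acyl-CoA synthetase of lipid droplets, had log2 ratios of 0.17 and 0.16, which in FPKM with a pseudocount of 1 were 0.04 in CT26 and 0.19 in MC38.

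Only the second line repeats the knockdown, so edgeR's quasi-likelihood test, with line as a block, was used to look for an effect shared by CT26 and MC38. At an adjusted p under 0.05 it called 0 of the 34 genes, against 2.79% of all genes compared (333 of 11928). At an unadjusted p under 0.05 it gave 4 of the 34, namely Mvk, Msmo1 and Fads1 higher and Scd2 lower, against 12.3% of all genes. DESeq2 gave 0 of the 34 at an unadjusted p under 0.05, against 4.17% of all genes, and limma-voom gave 5, against 11.0%. After adjustment both called 0, against 0.310% of all genes (37) with DESeq2 and 2.24% (267) with limma-voom. The lowest adjusted p of the edgeR test was 0.187, for Fads1 (log2 0.25 ± 0.10, SE), higher in both lines. Scd2 followed with an adjusted p of 0.21 in edgeR (log2 −0.23 ± 0.09), although its MC38 ratio was 0.03. Mvk had an edgeR adjusted p of 0.271 (0.34 ± 0.15) and Msmo1 one of 0.309 (0.23 ± 0.10). The fit had infinite prior and 1 residual degree of freedom, so the SE rests on the spread over all genes.

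As among all genes compared, more of the 34 genes were called between the lines than with the knockdown. In the same fit, 27 of the 34 were called between the lines at an adjusted p under 0.05, beside 8746 of all 11928 genes. Of the 34, 22 were higher in MC38 (64.7%, against 36.7% of all genes), and 5 were lower (14.7%, against 36.6%). The shGFP and shmaurka-1 libraries of each line stood in as its replicates. The p-values between the lines therefore do not measure the spread between cultures of a line. The level of Acss2 was 16.8-fold higher in MC38 (log2 4.07 ± 0.17, SE, edgeR adjusted p = 2.09e-117), with a mean of 14.8 FPKM against 0.909 in CT26. Hsd17b7 followed at 6.63-fold, Elovl6 at 5.02-fold, Fads2 at 4.36-fold and Idi1 at 3.99-fold. Of the regulators Srebf1 was higher in MC38 (log2 1.14 ± 0.11, edgeR adjusted p = 4.59e-26) and Srebf2 was not called (−0.18 ± 0.10, edgeR adjusted p = 0.0826), although it was called lower in MC38 with edgeR's filterByExpr (−0.24) and had the other sign under total-count scaling (0.14).

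Abca1 was 21.1-fold lower in MC38 (log2 −4.40 ± 0.18, edgeR adjusted p = 3.17e-129), at a mean of 0.228 FPKM against 5.03 in CT26. The others lower in MC38 were Msmo1 (−0.68), Scd1 (−0.65), Ebp (−0.59) and Sc5d (−0.48). Total-count scaling moved the median difference of all genes from 0.005 to 0.320, and then 26 genes of the list were higher (49.1% of all genes) and 3 lower (25.4%), with Ebp and Sc5d no longer called. With filterByExpr 21 of 35 genes were higher (40.1% of the 14468 genes of that fit) and 8 lower (35.9%). On the scaled counts Acly was higher in MC38 (log2 0.30), but its mean FPKM was 61.6 there and 79.5 in CT26, the 1 gene of the 34 whose direction differed between counts and FPKM.

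**Figure D4:**
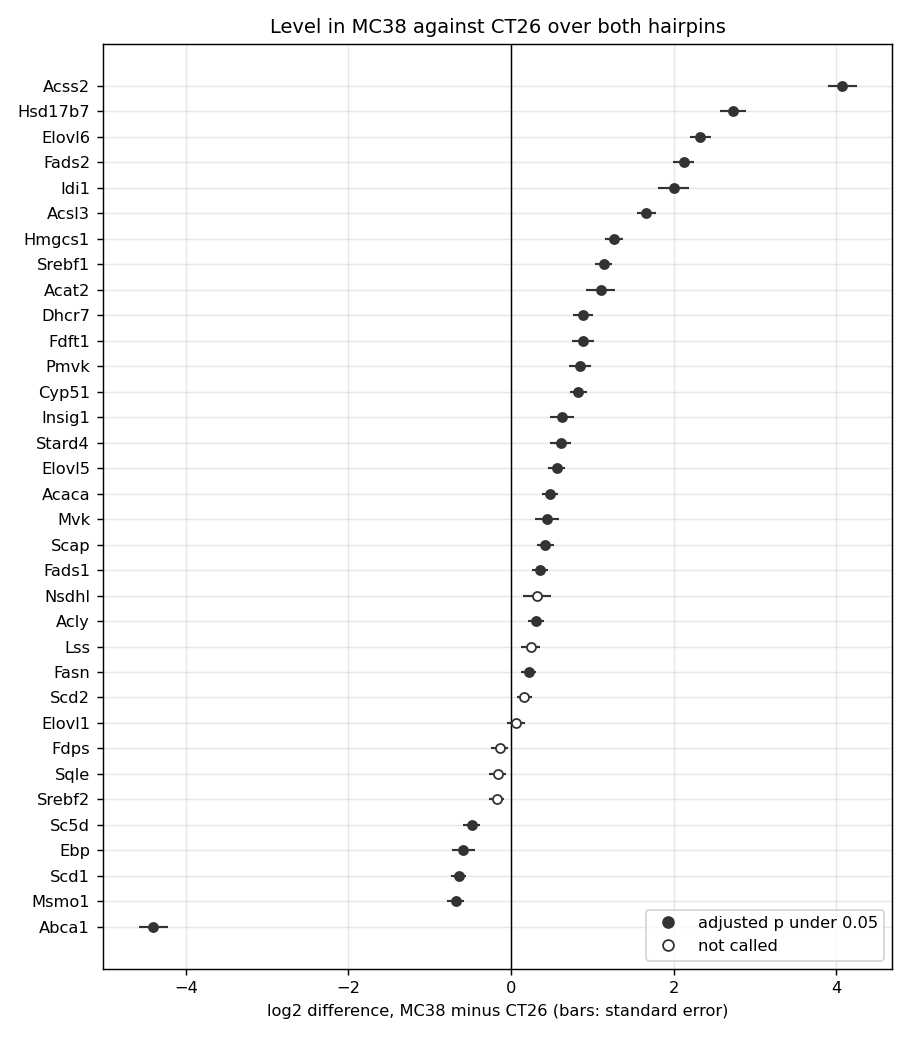
Log2 difference of MC38 from CT26 over both hairpins for the 34 genes, ordered by size, with standard errors derived from the edgeR F statistic. The shGFP and shmaurka-1 libraries of each line stood in as its replicates. Filled circles have an adjusted p under 0.05, of which 22 lie to the right of 0 and 5 to the left, and Acss2 and Abca1 stand at the ends.

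Genes around the pathway were read in the same way. The 4 genes of SREBP processing were split, 2 higher and 2 lower in both lines, with Insig2, a retention factor like Insig1, at log2 −0.18 in CT26 and −0.34 in MC38. Of 6 genes that use isoprenoids for prenylation or dolichol synthesis, 2 were higher in each line (against 46.1% of all genes in CT26 and 51.0% in MC38), with median log2 ratios of −0.065 in CT26 and −0.028 in MC38. Ggps1 turned to the higher side with DESeq2 size factors in CT26 and in FPKM in MC38, where the median became 0.002. LXR receptors and targets other than Abca1 had log2 ratios below 0 in CT26 in 5 of 5 cases, against 53.9% of all genes, with a median of −0.387, but the interval lay below 0 for 2 of them, Mylip and Lpcat3. In FPKM with a pseudocount of 1 it was 4 of 5, with Nr1h2 at 0.11 in place of −0.03, and the median was −0.051. In MC38 3 of 5 were below 0, against 49.0% of all genes, with a median of −0.076. Lpcat3, a phospholipid acyltransferase under LXR, had log2 ratios of −0.39 (−0.53 to −0.26) in CT26 and 0.005 in MC38, where it was below 0 in FPKM and under the other 2 scalings. Nr1h3 and Abcg1 had at most 40 fragments in any library.

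Of 12 further fatty acid genes compared, 8 were higher in each line, with medians of 0.052 and 0.107, against 46.1% of all genes in CT26 and 51.0% in MC38. The count was 10 in CT26 with DESeq2 size factors and 6 in MC38 in FPKM. Of the 10 genes of fatty acid oxidation 9 were lower in CT26, against 53.9% of all genes, with a median of −0.118. In FPKM with a pseudocount of 1 the count was also 9, with Cpt2 turned to 0.04 and Decr1 to −0.02, and the median was −0.066. In MC38 6 of the 10 were higher, against 51.0% of all genes, but 3 with DESeq2 size factors or total-count scaling and 4 in FPKM. Cpt1a, which admits long chains to the mitochondrion, was lower in both lines (log2 −0.42 and −0.21, edgeR adjusted p = 0.199). Among 5 glycerolipid genes edgeR called 2 for an effect common to both lines, Dgat2 and Lpin1, against 2.79% of all genes, and neither call held in every alternative. Dgat2, an enzyme of the last step of triglyceride synthesis, had 33.0 and 47.5 CPM in CT26 and 35.6 and 44.0 CPM in MC38 (common log2 0.42 ± 0.13, SE, edgeR adjusted p = 0.0367). Lpin1, a phosphatidate phosphatase and SREBP target, had 64.4 and 40.2 CPM in CT26 and 25.4 and 23.1 CPM in MC38 (common log2 −0.42 ± 0.13, edgeR adjusted p = 0.0443). Its log2 ratio was −0.68 in CT26 (−0.81 to −0.55) and −0.14 in MC38, where the interval included 0 (−0.30 to 0.025). The adjusted p of Dgat2 was 0.06 in limma-voom, 0.058 in edgeR with total-count scaling, 0.126 in edgeR with at least 50 counts and 0.58 in DESeq2. That of Lpin1 was 0.0447 in limma-voom, 0.0303 in edgeR with total-count scaling, 0.186 in edgeR with at least 50 counts and 0.734 in DESeq2.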

How the data were processed

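RNA of the 4 conditions was sequenced from strand-specific libraries, 1 per condition. The authors deposited, per gene and library, estimated counts scaled between libraries and FPKM values. The submitters' processing notes name Trimmomatic 0.36, HISAT2, Cuffdiff and Cufflinks 2.2.1, and whether counting used strand is not given in the sources used here. The notes also name GRCm39, but 99.7% of 20051 single-gene loci in the files overlapped their namesake in GRCm38.p6 and 9.7% of 22943 did in GRCm39, so coordinates are given as GRCm38.

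Estimated counts, as deposited, were divided by the smallest step between low values to recover whole fragments (97.1% to 97.7% of nonzero values whole within 0.05), which served for exact binomial intervals. Some loci of the files hold several overlapping genes. Log2 ratios used TMM scaling over the 4 libraries (edgeR 4.0.16, R 4.3.3) with 1 count added, for genes averaging 10 or more counts in both lines. The folds of 1.5 and 0.6 follow the study. Rounded counts were tested with edgeR's quasi-likelihood test over all 11928 genes with Benjamini-Hochberg adjustment, and DESeq2 1.42.0 and limma 3.58.1 were alternatives. SE values of edgeR effects are the absolute log2 effect over the square root of the test's F statistic. CPM values are deposited counts over the TMM-scaled library size, times 1000000. The deposited FPKM values served to compare levels of different genes and as an alternative with a pseudocount of 1 or 0.1. Other alternatives were total-count scaling, DESeq2 size factors, no or 5 counts added, no filter, at least 50 counts, filterByExpr and recovered fragments.

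The members, the lists of neighbouring genes and the marker lists were chosen with earlier results of these data known. Given in full were Aurka, members past 1.5-fold or 0.6-fold, members called, the highest and lowest ratio of each arm in each line and the 5 members with the highest mean FPKM. Other named genes were chosen after their values were seen. RefSeq promoter windows were matched by symbol. Fads1, Fdft1, Fdps, Scd1, Scd2, Sqle and Stard4 had no entry.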

Additional observations from a re-analysis of the deposited data

Results flagged for a closer look

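For 6 of the 34 genes compared (17.6%), the 95% intervals (counting error only) of the log2 ratio of shmaurka-1 over shGFP lay wholly below 0 in CT26 and wholly above 0 in MC38, as they did for 4.26% of all genes. With 1 library per condition, whether the lines differ was not tested. The log2 ratio in MC38 minus that in CT26 was 1.08 for Acss2, 0.64 for Pmvk, 0.41 for Scd1, 0.39 for Sc5d, 0.25 for Acaca and 0.14 for Fasn. The CT26 value of Acss2 rests on 74 and 40 fragments. In deposited FPKM the CT26 direction of Fasn was the other way, at 0.03 with a pseudocount of 1.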

How the results depend on the processing

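The count of 1 gene below 0.6-fold in CT26 became 0 with 5 counts added and in FPKM with a pseudocount of 1 or 0.1. With DESeq2 size factors 4 rather than 2 genes were more than 1.2-fold higher in CT26. In FPKM with a pseudocount of 1, 5 rather than 8 were more than 1.2-fold lower in CT26 and 3 rather than 6 more than 1.2-fold higher in MC38, and total-count scaling also gave 3 there. The line difference turned under total-count scaling for Srebf2 (0.14), Fdps (0.17) and Sqle (0.15), and under filterByExpr for Elovl1 (−0.001). The cause was not tested. The common effect called 0 of 34 genes under every alternative run, also without the pairing of knockdown and control by cell line (no replicate block), where 0 of all genes were called and 0 of the 34 had an unadjusted p under 0.05. Leaving out a library leaves a line without its comparison and was not run. All 68 single-gene ratios stayed within their counting interval under total-count scaling, DESeq2 size factors and 0 or 5 counts added, as did 65 in FPKM with a pseudocount of 1 and 64 with 0.1. The filters and recovered fragments leave single ratios nearly as they are by construction. With 40 fragments for Acss2 and 46 for Abca1 in the lower library, depth limits both ratios.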
